A study of Homo sapiens with 6 samples.

Results

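The 9 genes TAT, HPD, HGD, FAH, TH, DDC, DBH, PNMT and DCT encode enzymes that consume tyrosine or its products, and they are described here on every probe set that the array annotation gives to a single one of them. They make up 9 of the 22260 genes measured in this way and hold 146 of 352859 probe sets, each of which reads roughly 1 exon. NK-92MI, a human natural killer (NK) cell line that makes its own interleukin-2, was profiled on whole-transcript arrays. In the Mitochondrial transfer group, of 3 arrays, the cells had received 5 µg of mitochondria from WRL-68 cells (WRL-cells in the labels), a line the study describes as normal hepatocytes, by spinning at 1500 × g for 15 min. The 3 Control arrays carry the same cell line and medium, and no treatment is given for them beyond the group name. Whether control cells were spun, when RNA was taken and whether replicates were separate cultures are not given in the labels, so p-values measure only the spread between these samples.

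Tyrosine has several fates in the body. In liver it is broken down by TAT, HPD, HGD and FAH in turn, through hydroxyphenylpyruvate and homogentisate to fumarate and acetoacetate. In sympathetic neurons and the adrenal medulla it is turned by TH into L-DOPA, by DDC into dopamine and by DBH into noradrenaline. The adrenal medulla goes on to adrenaline by PNMT. In pigment cells it feeds melanin synthesis, in which DCT acts on dopachrome. These enzymes are known for liver, adrenal, nerve and pigment cells rather than for NK cells.

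The signal on the arrays was first set against background, taken as the 95th percentile of the mean log2 intensity of 845 probe sets for 367 olfactory receptor genes, which was 6.153. FAH was the only member with most of its probe sets above it on every array. Its mean over the 6 arrays passed background on 15 of 19 probe sets, and 14 passed on all 6 arrays. TH passed by its mean on 10 of 18 probe sets, of which 4 passed on all 6 arrays. The other genes passed on fewer, with 6 of 21 for DDC, 5 of 13 for DBH, 2 of 7 for PNMT, 3 of 19 for HGD, 2 of 17 for DCT, 1 of 19 for HPD and 0 of 13 for TAT. In all, 44 of the 146 probe sets (30.1%) had a mean above background, against 47.3% of all probe sets in the table, and 79 of the 146 lay at or below background on all 6 arrays.

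The cell type was checked against marker genes. The brightest probe set was above background in 14 of 14 NK markers, 13 of 16 hepatocyte markers, 8 of 8 epithelial markers, 7 of 8 markers of chromaffin or sympathetic cells and 5 of 7 melanocyte markers. The lists differed in the share of a gene's probe sets above background, which in the median gene was 96.2% for NK, 19.9% for hepatocyte, 23.2% for epithelial, 16.6% for chromaffin or sympathetic and 13.3% for melanocyte markers. Summed over the list as mean log2 intensity per gene, the hepatocyte markers came to 75.16 to 77.16 in Mitochondrial transfer arrays and 74.81 to 77.15 in Control arrays. The chromaffin or sympathetic list summed to 37.94 to 40.15 in Mitochondrial transfer arrays and 38.69 to 39.86 in Control arrays, and the melanocyte list to 34.75 to 35.72 in Mitochondrial transfer arrays and 34.04 to 35.08 in Control arrays. These ranges overlapped between the groups for all 3 lists. The 8 epithelial markers summed to 41.52 to 42.41 in Mitochondrial transfer arrays and 40.89 to 41.24 in Control arrays, without overlap. The list's median log2 difference (Mitochondrial transfer minus Control) was -0.10 by the brightest probe set and 0.11 by the mean of the probe sets. KRT18 stood at -0.41 and 0.60. The NK list summed to 122.61 to 124.49 in Mitochondrial transfer arrays and 125.71 to 126.99 in Control arrays, also without overlap. Its medians were -0.17 and -0.29, with FCER1G at 2.61 and GNLY at 0.32 by the brightest probe set. Over all probe sets above background the median difference was -0.096. The part of the epithelial or the NK shift in the results below was not tested. In bulk RNA, a change in the number of cells of a type and a change in RNA per cell cannot be told apart.

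The promoters of 5 of the 9 members were found in a RefSeq table (GRCh38.p14), each covering 250 bases before and 50 after a start site. Those of HPD, DBH and DCT, whose brightest probe sets differed between the groups, are shown with that of FAH, the member with the most signal. Capitals mark matches on either strand to the GC box GGGCGG, the CRE core TGACGTC (the cyclic AMP response element) and the M-box core TCATGTG, a motif of pigment cell genes. The TATA box TATAAA was searched as well. Matches that touch each other run together.
HPD upstream start, chr12:121888562-121888861, - strand: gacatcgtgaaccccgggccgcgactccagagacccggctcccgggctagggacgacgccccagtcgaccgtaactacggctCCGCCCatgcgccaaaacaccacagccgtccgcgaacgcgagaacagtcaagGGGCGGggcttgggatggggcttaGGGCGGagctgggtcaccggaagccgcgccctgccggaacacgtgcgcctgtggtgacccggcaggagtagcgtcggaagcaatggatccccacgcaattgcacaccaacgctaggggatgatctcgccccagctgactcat
HPD downstream start, chr12:121858810-121859109, - strand: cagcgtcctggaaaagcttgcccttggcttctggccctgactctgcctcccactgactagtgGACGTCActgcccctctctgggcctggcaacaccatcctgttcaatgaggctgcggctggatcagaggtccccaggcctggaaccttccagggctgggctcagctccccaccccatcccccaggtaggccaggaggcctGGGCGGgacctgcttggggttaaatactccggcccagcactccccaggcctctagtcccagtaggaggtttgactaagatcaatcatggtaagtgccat
DBH, chr9:133636113-133636412, + strand: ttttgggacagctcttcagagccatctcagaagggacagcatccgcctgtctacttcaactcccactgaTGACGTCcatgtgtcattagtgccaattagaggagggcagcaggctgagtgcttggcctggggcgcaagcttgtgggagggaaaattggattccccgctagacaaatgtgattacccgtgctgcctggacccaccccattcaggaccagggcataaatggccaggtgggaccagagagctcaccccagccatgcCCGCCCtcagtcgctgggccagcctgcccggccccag
DCT inner start, chr13:94479633-94479932, - strand: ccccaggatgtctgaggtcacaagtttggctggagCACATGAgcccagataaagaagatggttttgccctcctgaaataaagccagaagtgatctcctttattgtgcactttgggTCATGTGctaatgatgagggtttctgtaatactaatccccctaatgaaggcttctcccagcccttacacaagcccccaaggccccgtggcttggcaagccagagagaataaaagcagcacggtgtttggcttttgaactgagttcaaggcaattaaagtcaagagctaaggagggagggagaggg
FAH, chr15:80152539-80152838, + strand: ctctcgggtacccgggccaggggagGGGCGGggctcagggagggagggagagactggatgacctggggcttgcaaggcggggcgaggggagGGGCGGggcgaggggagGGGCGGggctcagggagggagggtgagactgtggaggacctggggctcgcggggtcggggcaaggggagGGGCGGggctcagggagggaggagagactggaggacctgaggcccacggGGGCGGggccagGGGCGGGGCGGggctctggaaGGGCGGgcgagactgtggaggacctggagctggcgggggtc
The GC box was found 3 times at the upstream start of HPD, 1 time at its downstream start, 1 time in DBH, 8 times at the FAH start shown and not at the DCT start shown. It was held by 45% of 35114 promoters of the same length. A CRE core was found 1 time at the downstream HPD start and 1 time in DBH, against 3.45% of all promoters, and an M-box core 2 times at the inner start of DCT, against 2.92%. The other DCT start in the table, not shown, held 0 M-box cores and 26 CpG pairs. No sequence shown held TATAAA, which 11.5% of all promoters held. CpG pairs numbered 32 and 5 at the upstream and downstream HPD starts, 8 in DBH, 2 at the inner start of DCT and 19 at the FAH start shown, with a median of 14 over all promoters. These matches describe the letters only, and the arrays do not say which start a transcript used.

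Each probe set was compared between the groups with limma across the whole table, and a probe set was called where its Benjamini-Hochberg adjusted p was under 0.05. Over all probe sets 204 (0.0578%) were called higher after mitochondrial transfer and 12 (0.0034%) lower. Of the 146 member probe sets, 1 was called higher, in HPD, and 0 lower. At an unadjusted p under 0.05, 9 member probe sets were higher and 6 lower, together 10.3%, against 4.68% higher and 5.36% lower over the table. The groups did not overlap on 12 probe sets with higher and 10 with lower values in Mitochondrial transfer arrays, against 7.53% and 10.3% of the table, and these probe sets made up 15.1% of the members. Without Mitochondrial transfer replicate 1, 8 were higher and 10 lower at an unadjusted p under 0.05, and over the fits that left out 1 array the counts ran from 8 to 12 higher and from 6 to 10 lower. Apart from the called HPD probe set, the shares of member probe sets lay near those of the table. The median log2 difference of the 146 was 0.00, against -0.05 over all probe sets.

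**Figure D1:**
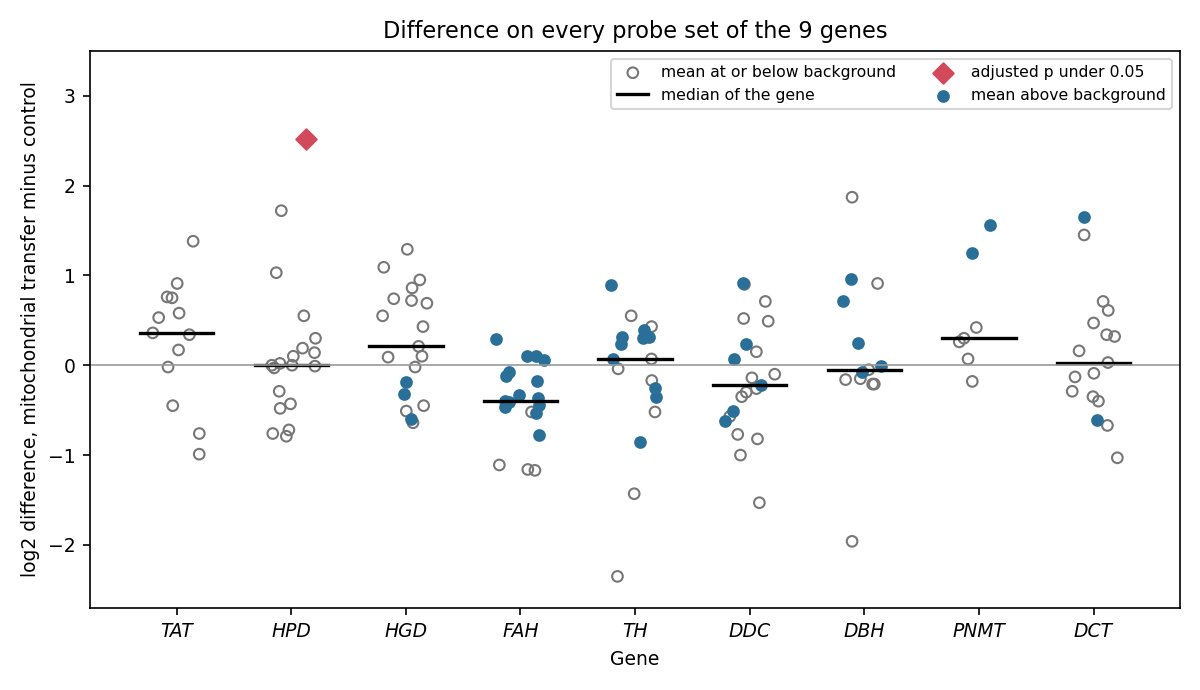
Log2 difference (Mitochondrial transfer minus Control) on each of the 146 probe sets, by gene, with a line at each gene's median. Filled points have a mean over the 6 arrays above background (6.153), open points do not, and the diamond marks the 1 probe set with an adjusted p under 0.05 (HPD, 2.52). The gene medians run from -0.40 for FAH to 0.36 for TAT, which lies at background.

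TAT transfers the amino group from tyrosine and starts its breakdown. None of its 13 probe sets had a mean above background. The brightest, 16828042, had log2 intensities of 4.68, 5.22 and 5.59 in Mitochondrial transfer arrays and 6.46, 5.70 and 5.62 in Control arrays. Only 1 Control array was above background there, and the Control mean of 5.93 was below it, so neither a difference nor a bound is given. The probe set with the smallest p, 16828040, read 5.85, 5.28 and 5.66 in Mitochondrial transfer arrays and 4.19, 4.92 and 4.95 in Control arrays. It lay below background on all 6 arrays, and the order of the groups was opposite on these 2 probe sets.

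HPD, the dioxygenase that makes homogentisate and is blocked by the drug nitisinone, held the called probe set. On 16771613 the log2 intensities were 8.85, 8.90 and 8.52 in Mitochondrial transfer arrays and 6.43, 6.33 and 5.96 in Control arrays. All 3 Mitochondrial transfer arrays lay far above all 3 Control arrays, which were near background, with 1 of them below it. The difference was 2.52 ± 0.23 on the log2 scale (SE), a 5.72-fold higher intensity, with an adjusted p of 0.0469 over all probe sets. The other 18 HPD probe sets did not follow it. Their median difference was 0.00, with 10 higher and 8 lower, and none had a mean above background. Among them 16771616 read 4.75, 4.19 and 5.53 in Mitochondrial transfer arrays and 3.65, 2.41 and 3.24 in Control arrays, all below background. On 16771608, Mitochondrial transfer arrays read 5.80, 5.49 and 5.25 and Control arrays 6.16, 6.20 and 6.32, the opposite order. The adjusted p of 16771613 was close to the threshold. It ranged from 0.00405 to 0.435 over 15 other ways of fitting and passed in 6 of them, and it did not pass when any 1 of the 6 arrays was left out, in which case no probe set of the table passed.

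HGD opens the ring of homogentisate, and its loss causes alkaptonuria. Its brightest probe set, 16957913, read 5.34, 7.19 and 6.69 in Mitochondrial transfer arrays and 6.94, 6.66 and 7.41 in Control arrays. The groups overlapped, and the difference of -0.60 ± 0.51 (SE) had an adjusted p of 0.714. It was -0.07 without Mitochondrial transfer replicate 1 and -0.99 without replicate 2 of that group. The smallest p was on 16957909, at 5.92, 5.48 and 6.16 in Mitochondrial transfer arrays and 5.45, 5.17 and 4.35 in Control arrays. The groups were separated by a narrow margin, and only 1 array was above background. Over the 19 probe sets 12 were higher and 7 lower.

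FAH, the last enzyme of the pathway, whose loss causes hereditary tyrosinaemia, was the member with clear signal. Its brightest probe set, 16803685, read 9.88, 10.31 and 9.91 in Mitochondrial transfer arrays and 10.22, 10.11 and 10.01 in Control arrays. The groups overlapped, with a difference of -0.08 ± 0.21 (SE) and an adjusted p of 0.917. Across the gene the differences leaned to one side, with 15 of 19 probe sets lower after transfer and 4 higher and a median of -0.40. Over all probe sets 54.9% were lower, a share that includes those at background. Among probe sets above background the median difference was -0.096, against -0.05 over all. With only genes above background kept, 1295 were called lower by the mean of their probe sets and 222 higher. A lean to lower values was thus not particular to FAH. None of the FAH probe sets was called. The groups did not overlap on 2 of the 15. One was 16803687, at 7.64, 7.17 and 7.59 in Mitochondrial transfer arrays and 7.82, 7.81 and 8.17 in Control arrays, a difference of -0.46 ± 0.23 (SE, adjusted p = 0.553). The other, 16803684, had the smallest p of the gene and read 4.37, 4.62 and 5.03 in Mitochondrial transfer arrays and 5.75, 6.12 and 5.65 in Control arrays, all below background. As the mean of its 19 probe sets, FAH had a log2 intensity of 7.52 ± 0.22 in Mitochondrial transfer arrays and 7.91 ± 0.10 in Control arrays (SD, n = 3 each). That difference of -0.40 had an unadjusted limma p of 0.0206 and an adjusted p of 0.19 over all genes, and it was not called.

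TH, which sets the pace of catecholamine synthesis, had probe sets of middle intensity that did not separate the groups. Its brightest, 16734407, read 8.82, 8.39 and 8.05 in Mitochondrial transfer arrays and 8.80, 7.56 and 7.99 in Control arrays. The groups overlapped, and the difference was 0.31 ± 0.38 (SE, adjusted p = 0.811), with 0.03 to 0.65 when 1 array was left out. The smallest p was on 16734406, at 3.60, 3.43 and 1.83 in Mitochondrial transfer arrays and 5.71, 4.90 and 5.29 in Control arrays. The groups stood apart there, but both were below background on every array. Of the 18 TH probe sets 10 were higher and 8 lower, with a median of 0.07.

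DDC makes dopamine from L-DOPA and also serotonin from its own precursor. Its probe sets above background went both ways. On 17057755 the log2 intensities were 7.51, 8.17 and 7.79 in Mitochondrial transfer arrays and 6.76, 6.98 and 6.98 in Control arrays. The groups did not overlap, and the difference of 0.92 ± 0.24 (SE) had an adjusted p of 0.357. The brightest probe set, 17057743, read 7.86, 6.79 and 7.87 in Mitochondrial transfer arrays and 8.35, 8.02 and 8.01 in Control arrays. All 3 Mitochondrial transfer arrays were lower there, with a difference of -0.62 ± 0.35 (SE, adjusted p = 0.596), which was -0.26 without Mitochondrial transfer replicate 2. Over the gene 8 probe sets were higher and 13 lower.

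DBH turns dopamine into noradrenaline inside secretory vesicles. Its brightest probe set, 17090871, read 8.65, 8.54 and 8.69 in Mitochondrial transfer arrays and 7.67, 7.72 and 7.62 in Control arrays. The replicates were close and the groups well apart, with a difference of 0.96 ± 0.18 (SE), 1.94-fold, and an adjusted p of 0.232 over all probe sets. A second probe set above background on all arrays, 17090866, stood in the same order, at 7.41, 6.93 and 7.76 in Mitochondrial transfer arrays and 6.50, 6.73 and 6.74 in Control arrays (adjusted p = 0.473). The remaining probe sets were mixed. Of all 13, 5 were higher and 8 lower, and 17090875, below background on every array, read 1.63, 1.40 and 2.40 in Mitochondrial transfer arrays against 3.67, 4.77 and 2.88 in Control arrays.

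PNMT, which makes adrenaline and marks adrenaline-producing cells, had 2 probe sets above background, and both stood higher after transfer. On 16833833 the log2 intensities were 8.71, 8.61 and 8.46 in Mitochondrial transfer arrays and 7.19, 6.80 and 7.11 in Control arrays. On 16833832 they were 7.44, 7.81 and 8.11 in Mitochondrial transfer arrays and 6.29, 7.12 and 6.19 in Control arrays. Neither pair of groups overlapped. The differences were 1.56 ± 0.20 (SE), 2.95-fold, and 1.25 ± 0.33 (SE), 2.38-fold, with adjusted p of 0.124 and 0.366 over all probe sets, so neither was called there. The other 5 probe sets had differences of -0.18 to 0.42 and a mean at or below background.

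DCT, a melanosome enzyme, was read mostly at background, with 15 of 17 probe sets at or below it on every array. The brightest, 16780215, read 8.05, 8.69 and 8.03 in Mitochondrial transfer arrays and 6.72, 6.54 and 6.56 in Control arrays. The groups were well separated, by 1.65 ± 0.25 (SE), 3.14-fold, with an adjusted p of 0.164 over all probe sets. The other probe set with a mean above background, 16780223, had the opposite order, at 6.70, 6.79 and 5.92 in Mitochondrial transfer arrays and 7.10, 6.86 and 7.30 in Control arrays. Its difference was -0.61 ± 0.30 (SE, adjusted p = 0.548).

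**Figure D2:**
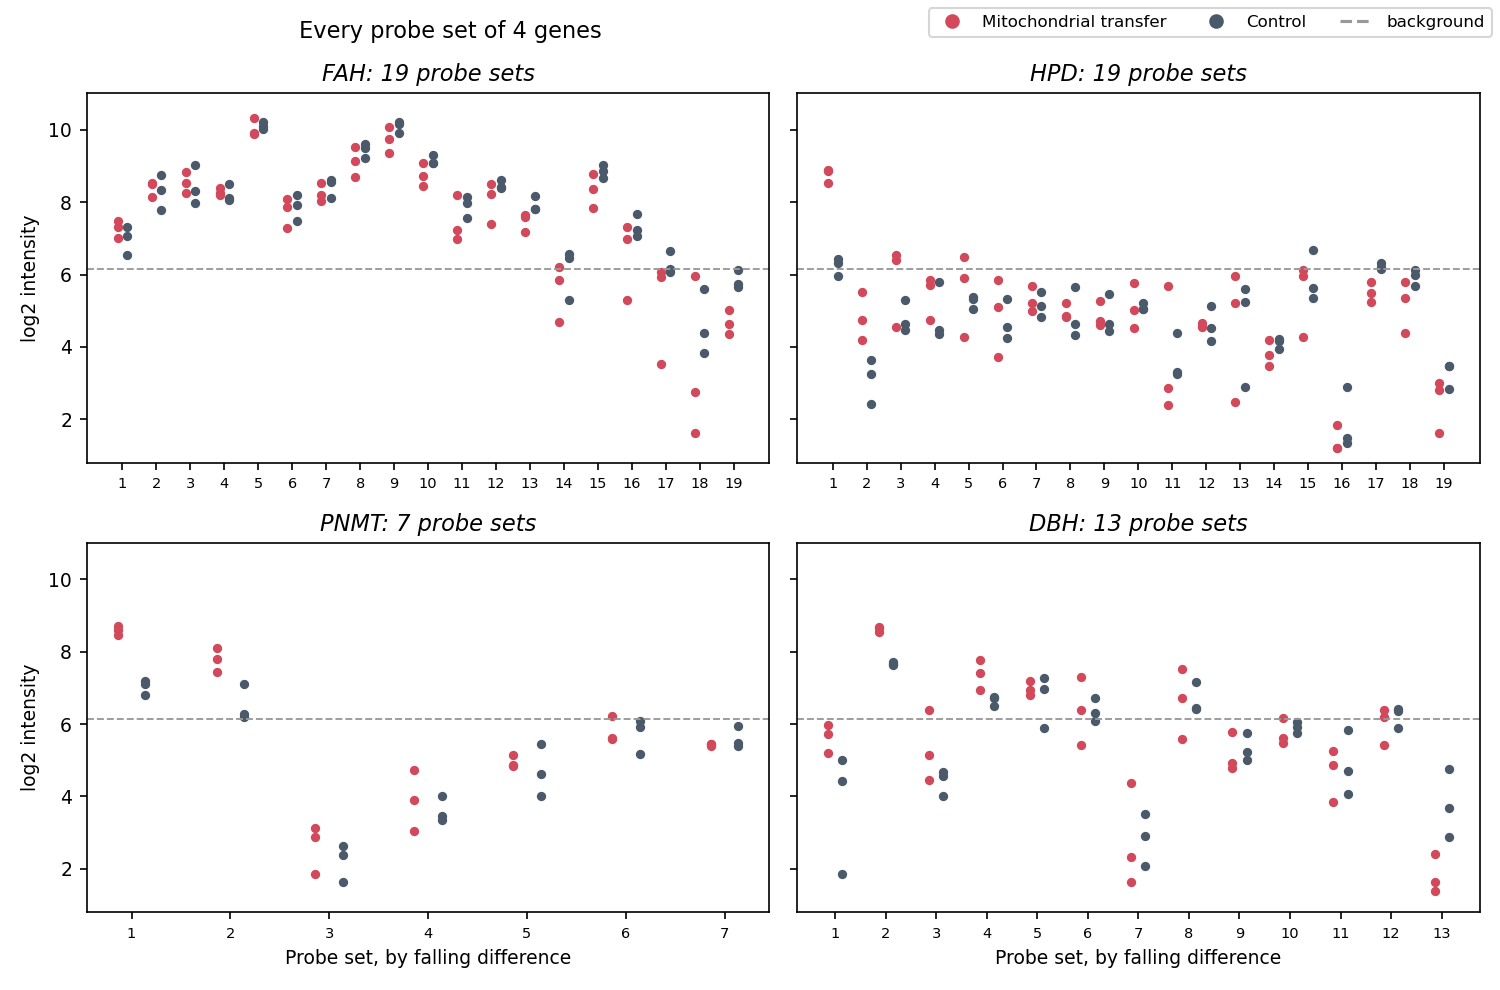
Log2 intensity on each array for every probe set of FAH, HPD, PNMT and DBH, ordered by falling difference, with Mitochondrial transfer arrays left of Control arrays and a dashed line at background (6.153). FAH lies mostly above the line in both groups, whereas HPD has a mean above it on 1 probe set of 19 and PNMT on 2 of 7.

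The genes were next compared with 1 value per gene, since a gene can be represented by its brightest probe set or by the mean of all its probe sets. The brightest probe set was chosen by its mean over all 6 arrays of both groups, so the choice depends on the values compared. With the brightest probe set, 388 of 22260 genes (1.74%) were called higher after transfer and 52 (0.234%) lower. Of the 9 members, 4 were called higher and 0 lower, and at an unadjusted p under 0.05 there were 4 higher and 1 lower, TAT, whose probe set was above background on 1 array only (10.6% and 7.31% of all genes). The 4 were HPD (adjusted p = 0.000892), PNMT (0.00496), DCT (0.0117) and DBH (0.0142), on the probe sets whose values are given above. This fit adjusts over fewer tests than that on every probe set and takes its prior spread from the brightest probe sets only. HPD and PNMT passed in each of the 6 fits that left out 1 array, with adjusted p of 0.00367 to 0.00812 and 0.019 to 0.0298. DCT did not pass without any 1 of the Control replicates, up to an adjusted p of 0.0666, nor did DBH without any 1 Control replicate or without Mitochondrial transfer replicate 3, up to 0.0773. Where the brightest probe set was chosen on the 3 Control arrays alone, an alternative added after seeing the data, DCT was read on 16780223 and was not called, and HPD, PNMT and DBH stayed called. Fewer of all genes were then called in each direction.

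**Figure D3:**
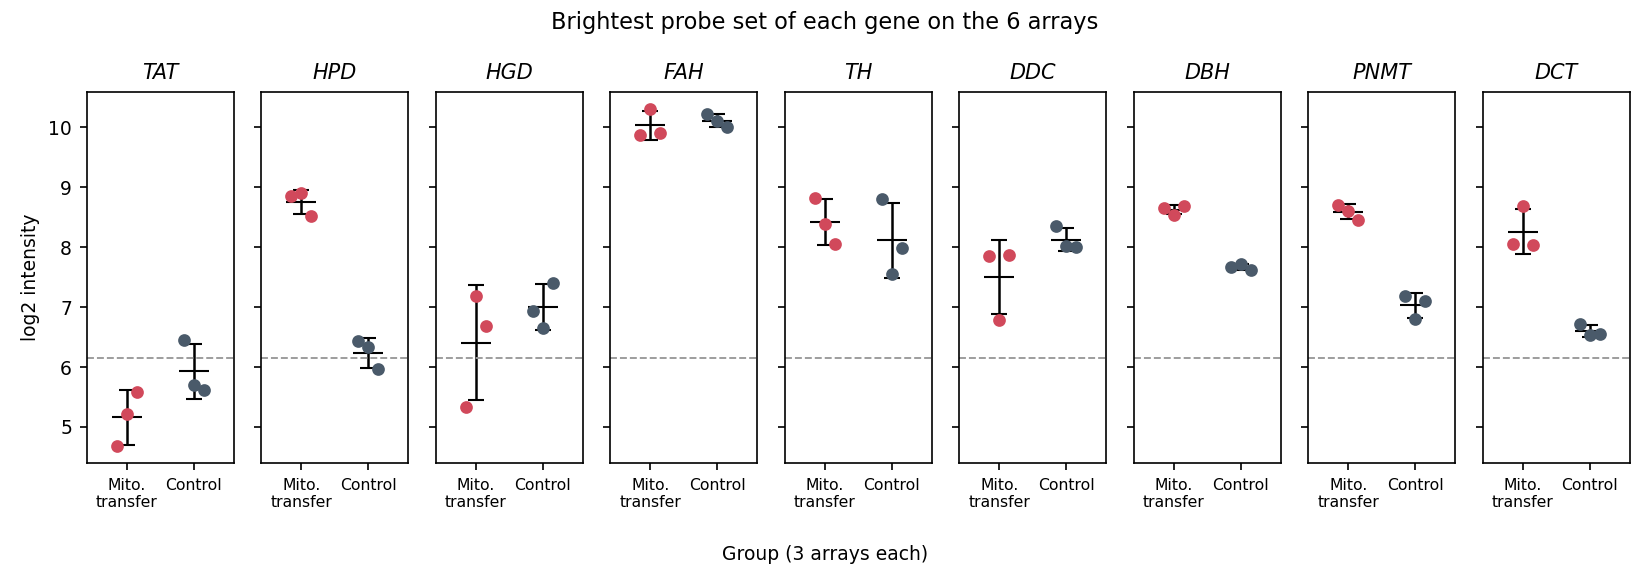
Log2 intensity of every gene on its brightest probe set, on the 3 Mitochondrial transfer and 3 Control arrays, with bars at the mean ± SD and a dashed line at background (6.153). HPD, DBH, PNMT and DCT show no overlap and higher values after transfer, for example 8.52 to 8.90 in Mitochondrial transfer arrays against 5.96 to 6.43 in Control arrays for HPD.

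With the mean of all probe sets, 53 genes (0.238%) were called higher and 18 (0.0809%) lower, and 0 of the 9 members passed in either direction by limma. At an unadjusted p under 0.05, 1 member was higher and 1 lower (6.72% and 12.3% of all genes). The higher one was PNMT, at 5.59 ± 0.11 in Mitochondrial transfer arrays and 5.06 ± 0.15 in Control arrays (SD, n = 3 each), a difference of 0.53 with an unadjusted limma p of 0.00242 and an adjusted p of 0.108. The lower one was FAH, as given above. HPD averaged 4.85 ± 0.11 in Mitochondrial transfer arrays and 4.69 ± 0.05 in Control arrays, and its difference of 0.16 had an adjusted p of 0.451. DBH and DCT differed by 0.14 and 0.13, with adjusted p of 0.745 and 0.596. The difference of HPD was therefore carried by 1 probe set of 19. With the median of the probe sets, 14 genes (0.0629%) were called higher and 2 (0.00898%) lower, with 0 members among them and 0 members at an unadjusted p under 0.05 (5.27% and 8.14% of all genes).

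**Figure D4:**
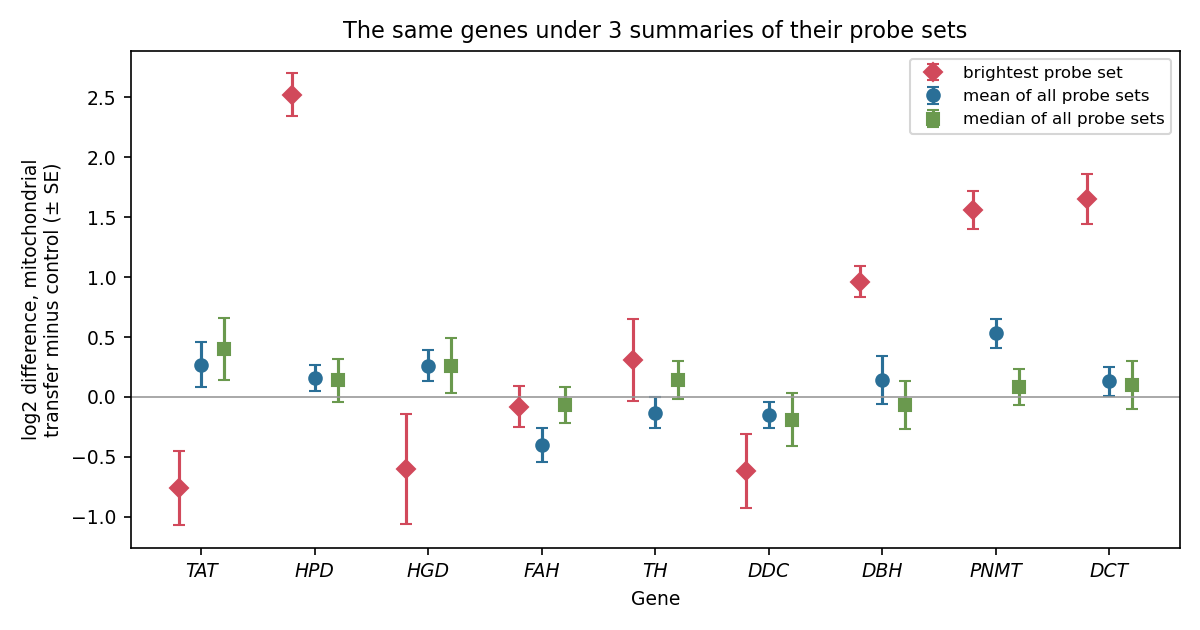
Log2 difference (Mitochondrial transfer minus Control, ± SE of the limma fit) of each gene by its brightest probe set, the mean of its probe sets and the median of its probe sets. HPD stands at 2.52 by its brightest probe set, 0.16 by the mean and 0.14 by the median, and PNMT at 1.56, 0.53 and 0.08.

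Several members share their locus with a long noncoding RNA in the RefSeq annotation. These are TAT with TAT-AS1, HPD with TIALD, DDC with DDC-AS1, DBH with DBH-AS1 and DCT with LOC124903191. The positions of single probe sets within the genes were not used here, so which exon the called HPD probe set reads, and whether such a neighbour adds to its signal, was not tested.

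The genes whose brightest probe set followed the called HPD probe set most closely over the 6 arrays were found among 17421 genes above background. They were ATG9B, with a Pearson correlation of 0.9987, WDR25 at 0.9976 and COL4A2 at 0.9976. All 3 were higher after transfer, and COL4A2, a chain of collagen IV, averaged 11.10 ± 0.25 in Mitochondrial transfer arrays and 7.91 ± 0.17 in Control arrays (SD, n = 3 each). In all, 43 genes had a correlation over 0.99. The 6 points fall into the 2 groups of the design, so any gene with a large and steady difference scores high, and the value describes likeness only.

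The wider pathway was covered by 95 genes in 10 lists, of which 85 had a probe set naming them alone. The rest of the lists is not analysed here. By the brightest probe set 1 of the 85 genes was called higher and 1 lower, against 1.74% and 0.234% of all genes, and by the mean of the probe sets 0 and 0 by limma, against 0.238% and 0.0809%. By the brightest probe set 14 genes were higher and 5 lower with a p under 0.05 before adjustment (10.6% and 7.31% of all genes), and by the mean 9 were higher and 12 lower (6.72% and 12.3%). The median difference of the 85 was 0.10 by the brightest probe set and 0.00 by the mean.

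CYB561, the vesicle cytochrome that passes electrons inward for DBH, was the gene called higher. Its brightest probe set read 7.42, 7.57 and 7.36 in Mitochondrial transfer arrays and 5.20, 5.17 and 5.98 in Control arrays. All Control arrays were at background, so the log2 difference was given as a bound, at least 1.30, with an adjusted p of 0.00956. As in HPD, the rest of the gene did not follow, with 3 of 9 other probe sets higher and a median of -0.13. Those 9 had a mean at or below background, since only the brightest passed it (10% of 10 probe sets). CYB561 was not called when the replicate number was fitted as a block, nor in some of the fits that left out 1 array. Nor was it called where the brightest probe set was chosen on the Control arrays alone, the alternative added after seeing the data.

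NR4A2, a nuclear receptor that drives TH in dopamine neurons, was the gene called lower. It read 9.84, 9.63 and 9.72 in Mitochondrial transfer arrays and 10.95, 10.73 and 10.54 in Control arrays, a difference of -1.01 (adjusted p = 0.0264). Here the gene was read above background on all of its 13 probe sets, and the other 12 had a median difference of -0.86, with 2 higher. By the mean of its probe sets the difference was -0.65, with an adjusted p of 0.0808. The call by the brightest probe set was lost whichever array was left out, and also when the replicate number was fitted as a block.

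Tetrahydrobiopterin is the cofactor of TH. Of the 8 measured genes that make or recycle it, 0 were called by limma, and 4 were higher at an unadjusted p under 0.05 (10.6% of all genes), with a median difference of 0.53 by the brightest probe set and -0.06 by the mean. QDPR, which recycles the cofactor, read 8.59, 9.0 and 8.65 in Mitochondrial transfer arrays and 8.01, 7.55 and 7.43 in Control arrays. The groups did not overlap, the adjusted p was 0.0531, and 11 of its 12 other probe sets were also higher. GCHFR, which restrains the first step of synthesis, read 7.96, 7.85 and 8.01 in Mitochondrial transfer arrays and 7.33, 6.38 and 7.14 in Control arrays (adjusted p = 0.12). All 5 of its other probe sets were higher, with a median of 0.40. By the mean of all its probe sets the difference was 0.47, with a limma adjusted p of 0.124. PCBD1, a second recycling enzyme, was at background on every Control array, and its brightest probe set averaged 6.45 in Mitochondrial transfer arrays and 5.51 in Control arrays (adjusted p = 0.109). The log2 difference there was given as a bound, at least 0.30. Its other 6 probe sets had a median of -0.33, with 2 higher, and the difference by the mean of all its probe sets was -0.06.

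The other lists held no further call by either value per gene. In the rest of phenylalanine and tyrosine breakdown, of which 7 genes were measured, GSTZ1, the enzyme acting just before FAH, read 8.66, 8.51 and 8.63 in Mitochondrial transfer arrays and 8.01, 7.64 and 7.49 in Control arrays (adjusted p = 0.0559). Its other 18 probe sets had a median of -0.45, with 4 higher, so its brightest probe set and the rest of the gene stood in opposite orders. The median of the 7 catecholaminergic transcription factors was -0.15 by the brightest probe set, 0.07 without Mitochondrial transfer replicate 1 and -0.34 without replicate 2 of that group. Catecholamine breakdown (10 genes) had a median of -0.02 (-0.22 to 0.09 with 1 array left out), the adrenergic and dopamine receptors (14 genes) 0.05 (-0.01 to 0.08), and the melanin and melanosome genes (10 genes) 0.14 (-0.04 to 0.15).

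**Figure D5:**
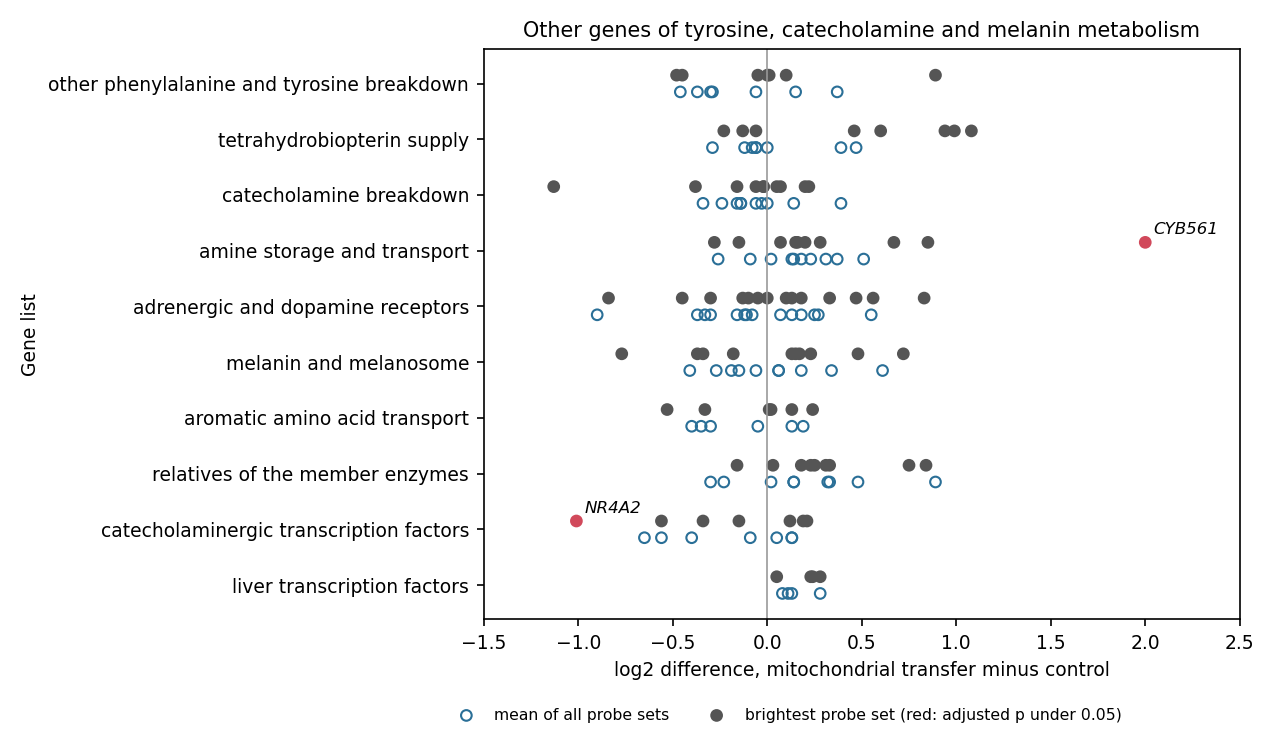
Log2 difference (Mitochondrial transfer minus Control) of the 85 measured genes of the 10 wider lists, by the brightest probe set (filled) and by the mean of all probe sets (open). CYB561 (2.00 as fitted, with Control at background) and NR4A2 (-1.01) are the 2 genes in red, with an adjusted p under 0.05. By the mean of all probe sets CYB561 stands at 0.13 and NR4A2 at -0.65.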

How the data were processed

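RNA of NK-92MI cells was labelled as cDNA and read on whole-transcript arrays, 3 per group. The deposited values are log2 intensities made by the authors with RMA in Affymetrix Power Tools per the labels, which corrects background, quantile-normalizes probes and summarizes each exon-level probe set. Version, genome build and probe filter are not given in the sources used here. No scanner files or detection calls were used. Groups came from sample titles.

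Probe sets were named by the platform annotation. Of 352859, 259224 named 1 gene, 13116 several and 80519 none, and symbols were matched to RefSeq (20529 current, 1726 updated, 65 unmatched). Only sets naming 1 gene entered the values per gene, with a median of 10 sets a gene. Differences of Mitochondrial transfer minus Control were fitted in limma 3.58.1 (R 4.3.3, with package data.table at 1.17.8) by lmFit and eBayes without trend, on every probe set, on the brightest set per gene by its mean over 6 arrays, and on the mean or median of a gene's sets. P-values were adjusted by Benjamini-Hochberg over the whole table at 0.05. No further normalization or filter was applied. An exact permutation test of 3 against 3 arrays cannot go below 0.1, so none was used. The fit of single probe sets was tested on simulated data with known differences. The choice of the brightest probe set, the other values per gene and the bounds were not tested in this way. Where one group lay at background on every array, a difference is given as a bound with those values raised to background, and none is given where both did or the other group's mean did not pass background.

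The text names every member, with values on each array for called probe sets, the brightest and that with the smallest p. From the wider lists it names genes that were called and, for some lists without a call, genes with the smallest p. Other lists are given by their median only. Aromatic amino acid transport, relatives of the member enzymes and liver transcription factors enter only the counts and median over all lists. Further probe sets were named after their values were seen. Members and lists were chosen with earlier results of these data known. Alternatives covered normalization, filtering, fit options, array weights, replicate block, the methods' t-test, the value per gene and leaving out each array. The number of arrays limits the precision.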

Additional observations from a re-analysis of the deposited data

How the results depend on the processing

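Counts are given as higher and lower after transfer. As reported, they were 204 and 12 probe sets, 388 and 52 genes by the brightest probe set, and 53 and 18 by the mean, with 1 and 0 member probe sets, 4 and 0 member genes by the brightest probe set, 0 and 0 by the mean, and 1 and 1 genes of the wider lists. Quantile normalization gave 33 lower genes by the brightest probe set and 3 higher in the wider lists, which cyclic loess (with 21 lower probe sets) and median centring also gave. Cyclic loess turned the difference of the brightest FAH probe set to 0.01, from -0.08. These scalings moved the median of all probe sets by under 0.1. Keeping only probe sets above background gave 767 and 124 probe sets, 3 member probe sets (HPD, PNMT at an adjusted p of 0.0176 and DCT at 0.0328), 115 lower genes by the brightest probe set, 222 and 1295 by the mean and 3 higher in the wider lists. Trend and robust options gave 935 and 241 probe sets, 3 member probe sets (PNMT 0.0222, DCT 0.0469), 750 and 326 genes by the brightest probe set, 277 and 1025 by the mean and 3 and 2 in the wider lists. Array weights gave 0 member probe sets (HPD adjusted p = 0.0534) and 2 higher genes in the wider lists. Same-numbered samples deviated together only weakly (correlations of 0.0075 to 0.069), so the numbers were not taken to pair samples; a replicate block gave 0 and 0 probe sets (15454 and 16552 at an unadjusted p under 0.05), 0 member probe sets (11 and 8), 154 and 4 genes by the brightest probe set, 2 member genes (HPD 0.00821 and PNMT 0.0407), 8 and 0 by the mean and 0 and 0 in the wider lists. The methods' t-test at an unadjusted p under 0.05 gave 16055 and 21004 probe sets, 9 and 4 member probe sets, 2113 and 1676 genes by the brightest probe set, 1206 and 2694 by the mean, 1 and 1 members by the mean and 15 and 5 in the wider lists. After Benjamini-Hochberg it gave 26 higher probe sets, 0 member probe sets (HPD 0.121), 149 and 33 genes by the brightest probe set (3 members, without DCT at 0.0886), 0 and 0 by the mean and 0 and 0 in the wider lists. The mean and the median of the probe sets gave 0 member genes and 0 and 0 in the wider lists. Choosing the brightest probe set on the Control arrays, added after seeing the data, gave 154 and 31 genes and 0 higher in the wider lists. Leaving out 1 array gave 0 to 0 probe sets in both directions (13273 to 17226 higher and 11783 to 22719 lower at an unadjusted p under 0.05), 0 member probe sets, 167 to 287 and 1 to 60 genes by the brightest probe set, 2 to 4 member genes, 6 to 12 and 0 to 1 by the mean, and 0 to 1 and 0 to 0 in the wider lists. The cause of these shifts was not tested. Most member probe sets lie at background, where a difference in RNA was not detectable, and 3 arrays a group limit the precision.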
